A study of Mus musculus with 9 samples.

Results

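G1C7 is a TIM-3 knockout derivative of NP53, a mouse diffuse midline glioma line, and it was set against the parental line, labelled Gcontrol and wild type. The 3 G1C7 libraries and the 3 Gcontrol libraries, taken by their titles, are 6 of the 9 in the series. The other 3 come from G2C9, another TIM-3 knockout derivative of NP53, and served to ask which differences belonged to G1C7 and not to G2C9. Cells of all 3 groups were grown in DMEM with fetal bovine serum and antibiotics, and polyadenylated RNA was sequenced. The labels give neither the guide nor the edited allele, do not say whether a derivative is 1 clone, and do not say whether the 3 libraries of a group are separate cultures, so p-values measure the spread between these libraries, which may be technical.

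TIM-3, the product of Havcr2, is a membrane receptor of the immunoglobulin superfamily. It is known best as an inhibitory receptor of exhausted T cells and of myeloid cells, with galectin-9, CEACAM1, HMGB1 and phosphatidylserine as ligands, and BAG6 and FYN bind its cytoplasmic tail. Diffuse midline gliomas are tumours of the pons, thalamus and spinal cord, and their cells often resemble oligodendrocyte precursors.

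The libraries held between 50110129 and 56035382 reads in genes, and mitochondrial genes took 1.39% to 1.94% of them. Levels are given as CPM, a read count scaled by the TMM library size, and 3 read pairs in 1 library correspond to between 0.106 and 0.122 CPM. Differences are log2 fold changes with their SE from an edgeR quasi-likelihood fit, and genes with an adjusted p (Benjamini-Hochberg) under 0.05 were called. G1C7 replicate 2 stood apart from G1C7 replicates 1 and 3. The chi-square per degree of freedom over gene counts was 274.7 and 284 for its pairs and 8.19 between the other two. A median member of the hypoxia response list lay 1.48 above the Gcontrol mean on the log2 scale in G1C7 replicate 2, against -0.06 and -0.11 in replicates 1 and 3. For the unfolded protein response list these medians were 0.77 in replicate 2 and -0.09 and -0.08 in replicates 1 and 3. For the cell cycle list they were -0.52 in replicate 2 and 0.20 and 0.17 in replicates 1 and 3. G2C9 replicate 3 stood apart from its group in the same direction (correlation of deviations from the group means with G1C7 replicate 2 of 0.68, over the tested genes). The part of this difference in the results was not tested, and the counts of called members of many lists are also given with single libraries left out, one at a time.

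Markers of several cell types were read before the comparison. The oligodendrocyte lineage factors Olig1 and Olig2 and the precursor marker Ptprz1 had 0 reads in all 9 libraries, Sox10 reached 0.0396 CPM and the astrocyte filament gene Gfap 0.333 CPM. Pdgfra (238 to 541 CPM), Nes (90.1 to 158 CPM), Vim (1800.3 to 2307 CPM) and Cd44 (494 to 695 CPM) were present in every library. Genes that mark fibroblasts and mesenchymal cells were abundant in every library as well, with Col1a1 at 1282 to 3522 CPM and Prrx1 at 462 to 1042 CPM. The summed level of all 14 mesenchymal markers lay between 5538 and 13969 CPM in G1C7 and between 8675 and 9345 CPM in Gcontrol, and G1C7 replicate 2 was the highest library of its group. The T and NK cell markers summed to 0.393 to 0.584 CPM in G1C7 and to 0.296 to 0.480 CPM in Gcontrol, and the leukocyte gene Ptprc stayed at or under 0.0731 CPM. Olig1, Olig2 and Sox10 were thus at or near 0 in all 3 groups, but other members of these lists were present. Nkx2-2 lay at 3.58 to 10.2 CPM over all 9 libraries, and Cspg4 at 38.4 to 47.7 CPM in Gcontrol and 0.91 to 1.53 CPM in G1C7. Of the astrocyte markers, Aqp4 had 0 reads in all 9 libraries. Gja1 (349 to 424 CPM), Sox9 (26.2 to 85.2 CPM) and Glul (48.7 to 79.4 CPM) were present in every library.

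Havcr2 itself, at chr11:46454935-46481255 (GRCm38), had 55, 6 and 66 reads in the G1C7 libraries, against 74, 58 and 60 in Gcontrol. Only G1C7 replicate 2 lay below the Gcontrol range by a wide margin, and the difference was not called (log2 fold change -0.58 ± 0.64, adjusted p = 0.586). Reads in exons do not show whether an edited transcript still encodes protein, so they do not check the knockout. Of the 8 tested members of the list of TIM-3, its ligands and adaptors, Fyn, a Src-family kinase, was the one called, in a fit in which 8.77% of all tested genes were higher. With single libraries left out, between 0 without G2C9 replicate 1 or 2 or any single Gcontrol library and 3 without G1C7 replicate 2 were higher. Fyn had 68.1, 105 and 68.1 CPM in G1C7, against 48.9, 51.4 and 49.8 CPM in Gcontrol (0.68 ± 0.19, adjusted p = 0.0402). The call ended on leaving out G2C9 replicate 1 or 2 or any single Gcontrol library (adjusted p 0.0519 to 0.129). Lgals9, which encodes galectin-9 and was chosen after its values were seen, had 4.66, 11.4 and 5.37 CPM in G1C7 and 17.8, 17.2 and 18.01 CPM in Gcontrol (-1.31 ± 0.54, adjusted p = 0.135). It was not called over all libraries but was called in 2 of the 9 fits with a library left out, at the lowest with an adjusted p of 0.0243 in edgeR. The groups did not overlap for either gene.

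Of 15659 genes tested, 1373 were higher (8.77%) and 1367 lower (8.73%) in G1C7 than in Gcontrol, 17.5% in all. Among them, 293 were at least 2-fold higher and 695 at least 2-fold lower. Against G2C9, 268 genes were higher in G1C7 (1.71%) and 258 lower (1.65%), 3.36% in all. The median log2 fold change of all tested genes was 0.02 against Gcontrol and 0.01 against G2C9. With G1C7 replicate 2 left out, 2026 genes were higher (12.6%) and 2107 lower (13.1%) than in Gcontrol. Both contrasts use the G1C7 libraries, so a gene called in each is not called on independent evidence, and genes in both are described here by the values of all 9 libraries. Called list members were named because they were called, so a lack of overlap between their groups is largely implied by that choice. The share of all tested genes without overlap is not given here. List members given without G2C9 values are not described as particular to G1C7.

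The genes that set G1C7 apart by level were led by a group with almost no reads in G1C7. The naming rule drew on 159 protein-coding genes that were lower in G1C7 than in each other group, with no overlap between libraries. Rragb, at chrX:153139981-153171943, encodes RagB, a lysosomal GTPase that helps to recruit mTORC1 when amino acids are present. It had 0, 0 and 0 reads in G1C7, against 571, 561 and 531 in Gcontrol and 454, 470 and 357 in G2C9. The level in G1C7 was at least 274-fold lower than in Gcontrol and at least 231-fold lower than in G2C9, taking 3 read pairs over the group as the floor. Atp8a1, at chr5:67618140-67847434, encodes a phospholipid flippase that keeps phosphatidylserine on the cytoplasmic face of membranes. It had 0, 0 and 0 reads in G1C7, against 230, 224 and 193 in Gcontrol and 172, 128 and 189 in G2C9, at least 107-fold and at least 88.2-fold lower. These were the only 2 genes with at most 1 read in each G1C7 library and at least 100 in each of the other 6. No gene met the reverse rule, at least 100 reads in each G1C7 library and at most 10 in each of the others. Over all tested genes, 95 had 0 reads in G1C7, and 72 of those had 60 reads or more over the Gcontrol libraries. Of these 72, 13 also had 60 reads or more in G2C9, and 52 had at most 6.

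The promoters of Rragb and Atp8a1 are shown because these genes were silent in G1C7 alone. Both windows run from 250 bases before to 50 bases after the RefSeq gene start in GRCm38.p6, at chrX:153139708-153140007 (plus strand) and chr5:67847382-67847681 (minus strand), and are written in the direction of the gene with each CG dinucleotide in capitals.
Rragb: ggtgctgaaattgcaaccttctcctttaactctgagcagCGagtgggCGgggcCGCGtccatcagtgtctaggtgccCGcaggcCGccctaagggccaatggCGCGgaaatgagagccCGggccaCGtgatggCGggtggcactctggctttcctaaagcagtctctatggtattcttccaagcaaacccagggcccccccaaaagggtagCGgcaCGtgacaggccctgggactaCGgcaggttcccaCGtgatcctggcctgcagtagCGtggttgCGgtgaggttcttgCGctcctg
Atp8a1: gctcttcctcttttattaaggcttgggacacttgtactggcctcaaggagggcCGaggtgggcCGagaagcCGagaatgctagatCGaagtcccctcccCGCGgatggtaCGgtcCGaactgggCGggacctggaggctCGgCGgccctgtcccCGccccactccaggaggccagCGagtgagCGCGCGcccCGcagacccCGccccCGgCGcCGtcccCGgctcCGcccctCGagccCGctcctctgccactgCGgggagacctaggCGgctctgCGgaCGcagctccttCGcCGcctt
The Rragb window holds 18 CG dinucleotides and the Atp8a1 window 31, against a median of 7 in the 32851 promoters of the table. A count at least as high was found in 29.7% of promoters for Rragb and in 10.6% for Atp8a1. DNA methylation was not measured in these libraries.

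Ildr2, Soga3 and Slc4a3 also had 0 reads in every G1C7 library. Ildr2, at chr1:166254139-166316823, an immunoglobulin-like domain receptor, had 205, 142 and 164 reads in Gcontrol and 101, 74 and 204 in G2C9, so that G1C7 was at least 84.2-fold and at least 68.4-fold lower. Soga3, at chr10:29143839-29199630, had 127, 102 and 80 reads in Gcontrol and 94, 105 and 119 in G2C9 (at least 50.9-fold and at least 57.4-fold lower in G1C7). Slc4a3, at chr1:75546266-75562172, an anion exchanger of excitable cells, had 202, 140 and 158 reads in Gcontrol and 37, 34 and 132 in G2C9 (at least 82.4-fold and at least 36.6-fold lower in G1C7). The highest G2C9 count of Slc4a3 was in replicate 3. All 3 G1C7 libraries lay below every other library for each of these genes, as the naming rule required.

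Further genes kept a few reads in G1C7. Fzd3, a frizzled WNT receptor needed for axon tract formation in mice, had 0.187, 0.0728 and 0.11 CPM in G1C7, against 4.99, 6.097 and 4.66 in Gcontrol and 3.604, 4.74 and 3.12 in G2C9 (-5.39 ± 0.36, adjusted p = 8.36e-05 against Gcontrol; -4.93 ± 0.35, adjusted p = 3.07e-04 against G2C9). Dclk2, a microtubule-associated doublecortin-like kinase on chromosome 3, had 0.187, 0.255 and 0.183 CPM in G1C7, against 7.21, 6.63 and 7.16 in Gcontrol and 2.73, 1.88 and 3.71 in G2C9 (-5.06 ± 0.31, adjusted p = 7.67e-05; -3.72 ± 0.30, adjusted p = 5.33e-04). For Dclk2 the G2C9 libraries lay between the G1C7 and the Gcontrol libraries. C1ql1, a secreted synapse-organising protein of the C1q family, had 0, 4 and 0 reads in G1C7, against 423, 416 and 432 in Gcontrol and 72, 50 and 47 in G2C9. Its normalized level in G1C7 was lower by 314-fold (95% counting interval 86.7 to 2603) than in Gcontrol and by 45.7-fold (95% counting interval 12.3 to 386) than in G2C9. All 4 G1C7 reads were in replicate 2, and the order of the groups was the same as for Dclk2. Amph, an endocytic adaptor abundant at synapses, had 0, 2 and 1 reads in G1C7, against 92, 72 and 90 in Gcontrol and 60, 68 and 68 in G2C9. Ranbp17, an importin-beta family member, had 2, 0 and 0 reads in G1C7, against 128, 94 and 57 in Gcontrol and 60, 75 and 77 in G2C9. For both genes all 3 G1C7 libraries lay below the other 6, as the naming rule required, and by a wide margin.

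The remaining lower genes of the rule were Rnf113a2, Slfn3, Ctsc, Col11a1 and Ddx43. Rnf113a2 had 0.0374, 0.0728 and 0.0731 CPM in G1C7, 4.14, 4.29 and 4.59 in Gcontrol and 4.38, 4.25 and 6.05 in G2C9 (-6.09 ± 0.30, adjusted p = 2.90e-05 against Gcontrol). Slfn3, a Schlafen gene, had 0, 2 and 2 reads in G1C7, 69, 78 and 86 in Gcontrol and 137, 128 and 83 in G2C9. Both have close paralogs, and since reads with several positions were dropped their levels are uncertain. Ctsc, the dipeptidyl peptidase that activates granule serine proteases, had 0, 0.109 and 0.0365 CPM in G1C7, 9.06, 8.499 and 8.17 in Gcontrol and 0.515, 0.776 and 2.34 in G2C9 (-7.39 ± 0.86, adjusted p = 0.00104; -4.57 ± 0.83, adjusted p = 0.0223). Its call against G2C9 ended on leaving out G1C7 replicate 1 or 3, G2C9 replicate 2 or any single Gcontrol library (adjusted p 0.0518 to 0.0905). Without G1C7 replicate 2 the Ctsc differences were -8.68 against Gcontrol and -5.86 against G2C9, and that against G2C9 was -3.67 without G2C9 replicate 3. Col11a1, a fibrillar collagen chain encoded on chromosome 3, had 0.0935, 0.182 and 0.0183 CPM in G1C7, 7.54, 6.21 and 6.88 in Gcontrol and 1.35, 0.898 and 4.02 in G2C9 (-6.10 ± 0.77, adjusted p = 0.00149; -4.38 ± 0.74, adjusted p = 0.0168). Its call against G2C9 ended on leaving out G1C7 replicate 1 or 3 (adjusted p 0.0544 to 0.0707). Without G1C7 replicate 2 the Col11a1 differences were -6.89 and -5.17, and that against G2C9 was -3.50 without G2C9 replicate 3. Ddx43, an RNA helicase known from the testis, had 0, 0.164 and 0.0365 CPM in G1C7, 1.904, 1.59 and 1.59 in Gcontrol and 1.86, 0.755 and 1.699 in G2C9 (-4.61 ± 0.77, adjusted p = 0.00502; -4.37 ± 0.77, adjusted p = 0.0193). Its call against G2C9 ended on leaving out G1C7 replicate 3, G2C9 replicate 1 or any single Gcontrol library (adjusted p 0.0532 to 0.0803). Without G1C7 replicate 2 the Ddx43 differences were -6.34 and -6.11.

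**Figure D1:**
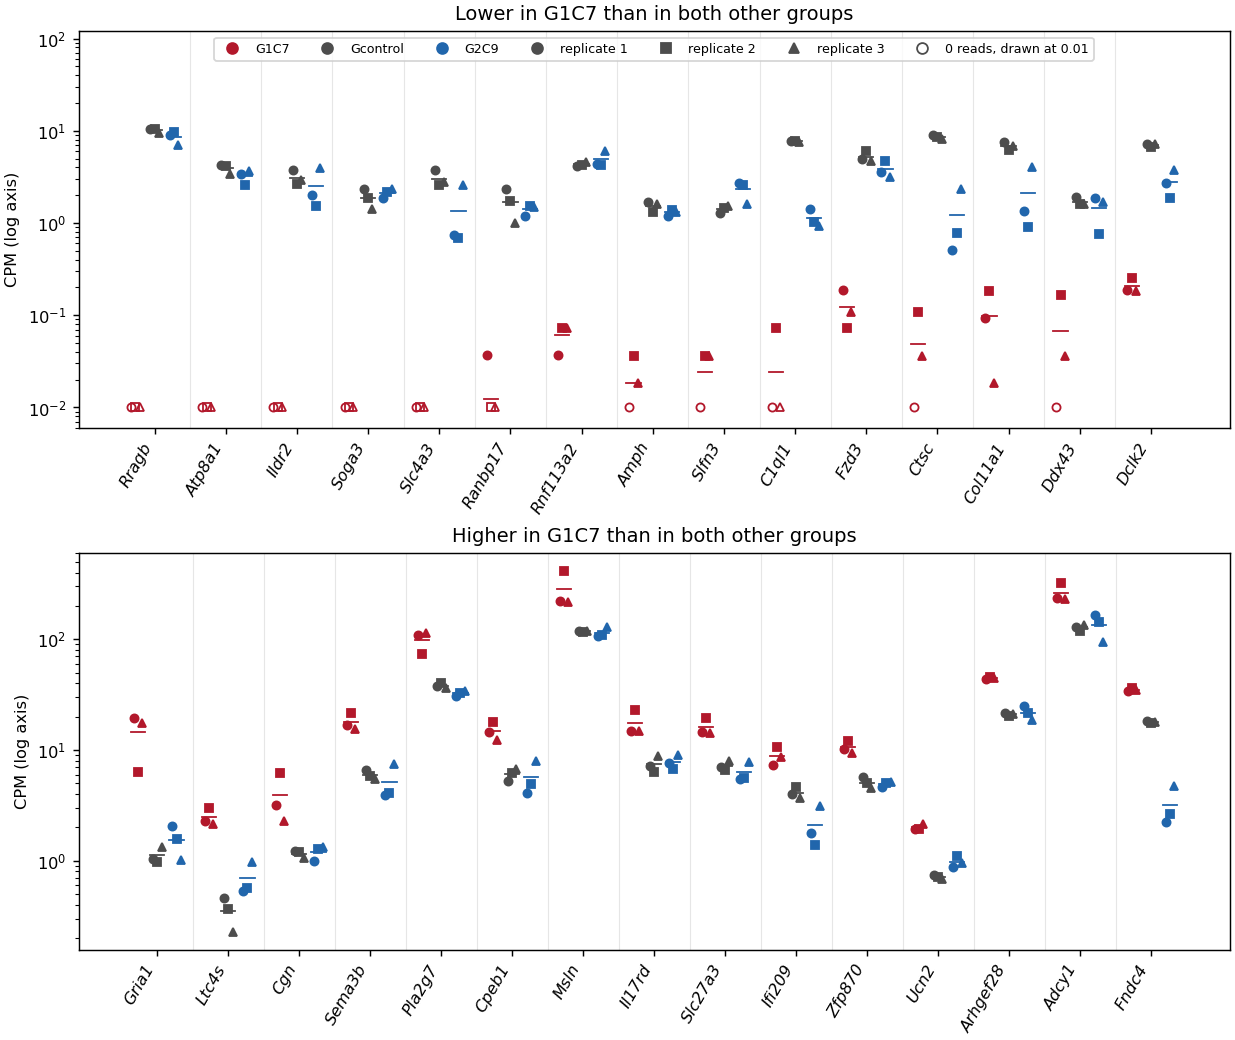
CPM of the 30 genes named as set apart in G1C7, on a log axis, for each library of G1C7 (red), Gcontrol (grey) and G2C9 (blue); markers stand for replicates, short lines for group means, and open markers at 0.01 for 0 reads. Rragb, Atp8a1, Ildr2, Soga3 and Slc4a3 had 0 reads in all 3 G1C7 libraries. By the naming rule, every G1C7 library lay below the other 6 in the upper panel and above them in the lower panel.

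The rule drew on 108 protein-coding genes that were higher in G1C7 than in each other group, and Gria1 led them. Gria1, at chr11:57011387-57330244, encodes the GluA1 subunit of AMPA-type glutamate receptors. It had 19.5, 6.32 and 17.7 CPM in G1C7, against 1.04, 0.979 and 1.34 in Gcontrol and 2.06, 1.57 and 1.02 in G2C9 (3.70 ± 0.46, adjusted p = 0.00141 against Gcontrol; 3.23 ± 0.45, adjusted p = 0.00727 against G2C9). G1C7 replicate 2 had the lowest of the G1C7 values, and it lay above all 6 other libraries, as the naming rule required. Arhgef28, a guanine nucleotide exchange factor, had G1C7 replicates close to each other, with 43.7, 45.4 and 44.3 CPM in G1C7, 21.8, 20.1 and 21.3 in Gcontrol and 24.8, 21.6 and 18.5 in G2C9 (1.08 ± 0.11, adjusted p = 6.78e-04; 1.04 ± 0.11, adjusted p = 0.00217). Pla2g7, the secreted platelet-activating factor acetylhydrolase, is encoded on chromosome 17 and had 109, 73.1 and 114 CPM in G1C7, 37.8, 40.3 and 36.2 in Gcontrol and 30.8, 32.9 and 33.8 in G2C9 (1.38 ± 0.16, adjusted p = 0.00104; 1.61 ± 0.16, adjusted p = 0.00155). Zfp870, a KRAB-type zinc finger gene of the same chromosome with close paralogs and so of uncertain level, had 10.6 ± 1.39 CPM in G1C7, 5.08 ± 0.565 in Gcontrol and 4.95 ± 0.24 in G2C9 (mean ± SD, n = 3 each; 1.06 ± 0.15, adjusted p = 0.00255; 1.10 ± 0.15, adjusted p = 0.00727). The calls of these 4 genes held in each fit with a library left out.

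Sema3b, a secreted class 3 semaphorin, had 16.7, 21.6 and 15.5 CPM in G1C7, 6.64, 5.84 and 5.45 in Gcontrol and 3.94, 4.06 and 7.48 in G2C9 (1.59 ± 0.26, adjusted p = 0.00485; 1.80 ± 0.27, adjusted p = 0.00931), and the call against G2C9 ended on leaving out G2C9 replicate 2 (adjusted p 0.0504). Il17rd, also known as Sef, a membrane inhibitor of FGF signalling, had 14.7, 22.98 and 14.9 CPM in G1C7 and 7.21, 6.39 and 8.82 in Gcontrol (1.23 ± 0.22, adjusted p = 0.00656), and 7.68, 6.71 and 9.1 in G2C9, where its call ended on leaving out G2C9 replicate 1 or 2 or Gcontrol replicate 1 or 2 (adjusted p 0.0509 to 0.11). Adcy1, a calmodulin-stimulated adenylyl cyclase of neurons, had 236, 324 and 233 CPM in G1C7, 129, 118 and 136 in Gcontrol and 164, 143 and 94.6 in G2C9. Its call against Gcontrol (1.05 ± 0.21, adjusted p = 0.0105) ended on leaving out Gcontrol replicate 1 or 2 (adjusted p 0.0501 to 0.0538), and that against G2C9 (0.98 ± 0.21, adjusted p = 0.0403) ended on leaving out G1C7 replicate 1 or 3, G2C9 replicate 1 or 2 or any single Gcontrol library (adjusted p 0.0542 to 0.121). Ucn2, a peptide ligand of the type 2 corticotropin-releasing hormone receptor, had 2.01 ± 0.126 CPM in G1C7, 0.716 ± 0.03 in Gcontrol and 0.977 ± 0.117 in G2C9 (1.49 ± 0.21, adjusted p = 0.00209; 1.04 ± 0.20, adjusted p = 0.0278), and the call against G2C9 ended on leaving out G1C7 replicate 1 or 3, any single G2C9 library or any single Gcontrol library (adjusted p 0.0553 to 0.123). Fndc4, a secreted fibronectin type III protein, had 34.2, 36.5 and 34.6 CPM in G1C7, 18.1, 17.6 and 17.9 in Gcontrol and 2.26, 2.65 and 4.71 in G2C9. It was higher in G1C7 than in Gcontrol (0.97 ± 0.23, adjusted p = 0.0208), a call that ended on leaving out G1C7 replicate 3 or any single Gcontrol library (adjusted p 0.0512 to 0.0849), and differed more from G2C9 (3.45 ± 0.25, adjusted p = 3.15e-04), where the call held in each such fit.

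Msln, a cell-surface glycoprotein of mesothelium encoded on chromosome 17, had 223, 414 and 218 CPM in G1C7, 119, 116 and 119 in Gcontrol and 107, 109 and 128 in G2C9 (1.27 ± 0.23, adjusted p = 0.00732; 1.31 ± 0.23, adjusted p = 0.0198), with G1C7 replicate 2 the highest. Its call against G2C9 ended on leaving out G2C9 replicate 1 or 2 or Gcontrol replicate 2 or 3 (adjusted p 0.0505 to 0.0891). Slc27a3, an acyl-CoA synthetase of the fatty acid transport family on chromosome 3, had 14.5, 19.4 and 14.2 CPM in G1C7, 7.04, 6.596 and 8.01 in Gcontrol and 5.47, 5.59 and 7.87 in G2C9 (1.15 ± 0.19, adjusted p = 0.00519; 1.35 ± 0.20, adjusted p = 0.00865). That call against G2C9 ended on leaving out G2C9 replicate 2 (adjusted p 0.051). Cgn, a tight junction protein also encoded on chromosome 3, had 3.199, 6.21 and 2.28 CPM in G1C7, 1.22, 1.201 and 1.06 in Gcontrol and 0.99, 1.27 and 1.33 in G2C9 (1.75 ± 0.36, adjusted p = 0.0126; 1.70 ± 0.36, adjusted p = 0.0406). Its calls ended on leaving out any single Gcontrol library (adjusted p 0.054 to 0.0616) in the comparison with Gcontrol and on leaving out G1C7 replicate 1, any single G2C9 library or any single Gcontrol library (adjusted p 0.0742 to 0.155) in that with G2C9. Ltc4s, leukotriene C4 synthase, had 2.47 ± 0.469 CPM in G1C7, 0.354 ± 0.117 in Gcontrol and 0.694 ± 0.245 in G2C9 (2.80 ± 0.36, adjusted p = 0.00163; 1.83 ± 0.34, adjusted p = 0.0246). It lost the call against G2C9 on leaving out G1C7 replicate 1 or 3, G2C9 replicate 1 or 2 or Gcontrol replicate 2 (adjusted p 0.0617 to 0.116). Cpeb1, a cytoplasmic polyadenylation factor, had 14.9 ± 2.76 CPM in G1C7, 6.04 ± 0.741 in Gcontrol and 5.66 ± 2.06 in G2C9 (1.30 ± 0.26, adjusted p = 0.0109; 1.40 ± 0.26, adjusted p = 0.0244). It lost the call against Gcontrol on leaving out Gcontrol replicate 1 (adjusted p 0.0568) and that against G2C9 on leaving out G1C7 replicate 1, G2C9 replicate 1 or 2 or any single Gcontrol library (adjusted p 0.0532 to 0.113). Ifi209, of the interferon-inducible Ifi200 family with close paralogs, had 8.88 ± 1.64 CPM in G1C7, 4.11 ± 0.479 in Gcontrol and 2.098 ± 0.91 in G2C9 (1.11 ± 0.29, adjusted p = 0.0334; 2.08 ± 0.31, adjusted p = 0.00906). It lost the call against Gcontrol on leaving out G1C7 replicate 3 or any single Gcontrol library (adjusted p 0.073 to 0.129).

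A shift of whole chromosome stretches accompanied these single genes. On chromosome 3 from 75 Mb on, 610 genes were tested, and 209 of them (34.3%) were lower and 11 higher in G1C7 than in Gcontrol. Their median log2 fold change was -0.45, with quartiles of -0.70 and -0.15, and 82.1% lay below 0. The medians in the single libraries were -0.52, -0.37 and -0.51 in G1C7 replicates 1, 2 and 3. Against G2C9 the median was -0.36, and the stretch held 87 of the 258 genes lower in G1C7 (33.7%), with 3.9% of all tested genes. Below 75 Mb, the 229 tested genes of the same chromosome had a median of 0.01 against Gcontrol and 0.05 against G2C9.

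Chromosome 17 moved the other way. From 15 Mb on, 216 of 709 tested genes (30.5%) were higher and 25 lower in G1C7 than in Gcontrol, with a median log2 fold change of 0.43, quartiles of 0.11 and 0.69, and 80.3% above 0. The library medians were 0.37, 0.45 and 0.37, so G1C7 replicate 2 did not stand apart here. Against G2C9 the median was 0.30, and the stretch held 54 of the 268 genes higher in G1C7 (20.1%), with 4.53% of all tested genes. Chromosomes 10 and 13 were also higher in G1C7 than in Gcontrol, with medians of 0.28 and 0.20, but their medians against G2C9 were 0 and 0.0023. Chromosome 6 had a median of 0.01 against Gcontrol and of -0.15 against G2C9. Both boundaries, 75 and 15 Mb, were set after the values along the chromosomes were seen, gene copy number was not measured, and its part in these differences was not tested. Dclk2, Col11a1, Slc27a3 and Cgn, described above, lie on the lowered stretch of chromosome 3, and Pla2g7, Zfp870 and Msln on the raised stretch of chromosome 17.

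**Figure D2:**
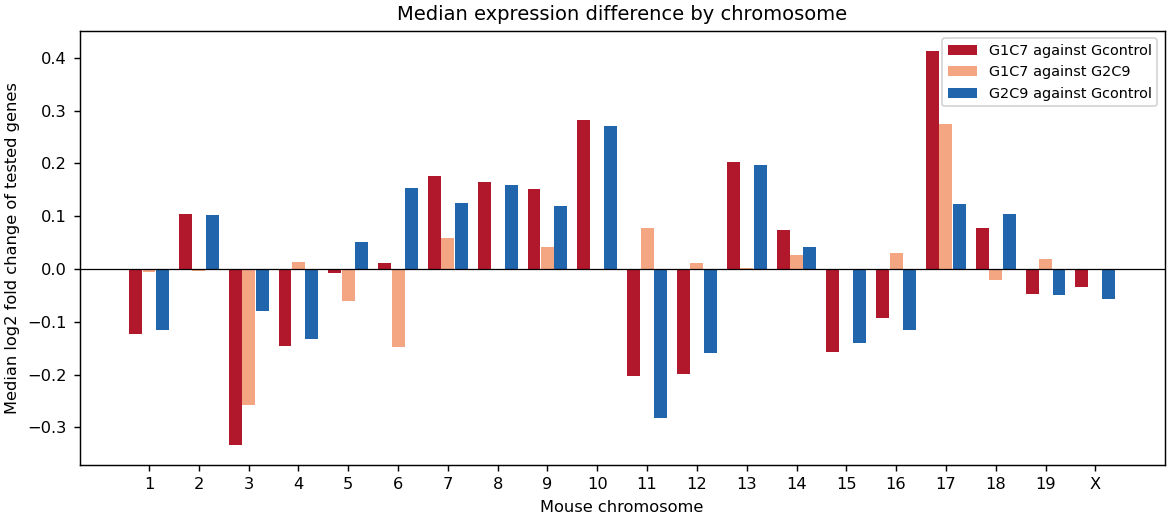
Median log2 fold change of the tested genes of each chromosome for G1C7 against Gcontrol, G1C7 against G2C9, and G2C9 against Gcontrol; chromosome Y, with 7 tested genes, is left out. Chromosomes 3 and 17 have the lowest and the highest G1C7 medians and keep their sign against G2C9, whereas chromosomes 10 and 13 have bars of nearly the same height in both derivatives.

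On the Y chromosome, 4 of 7 tested genes were lower in G1C7 than in Gcontrol. Ddx3y, an RNA helicase gene chosen here after its values were seen, had 22.2, 24.4 and 22.01 CPM in G1C7, against 39.6, 46.6 and 42.6 CPM in Gcontrol (-0.91 ± 0.11, adjusted p = 0.00259). The groups did not overlap, and G2C9 had 0 reads of this gene.

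The guanylate-binding proteins and immunity-related GTPases, interferon-induced GTPases of cell-autonomous defence, fell in part. Of 13 tested members, 6 were lower and 0 higher, with a median log2 fold change of -1.32. Over all tested genes, 8.73% were lower and 8.77% higher, shares to be set beside the counts of every list below. In the fit without G1C7 replicate 2, 9 of the 13 members were lower and the median was -2.38. Over all tested genes, that fit had 13.1% lower and 12.6% higher, which holds for every list count without this library. With single libraries left out, the number lower lay between 4 without G1C7 replicate 1 or any single Gcontrol library and 9 without G1C7 replicate 2. Medians by library were -2.05, -0.41 and -2.41 in G1C7 replicates 1, 2 and 3. Gbp2 had 15.2, 11.5 and 14.5 CPM in G1C7, against 78.1, 79.04 and 75.01 CPM in Gcontrol and 28.5, 27.3 and 30.3 CPM in G2C9 (-2.50 ± 0.12, adjusted p = 2.90e-05; -1.06 ± 0.11, adjusted p = 0.00211 against G2C9). The 3 groups did not overlap, with G1C7 lowest and G2C9 in the middle, and both calls held with each library left out. Gbp2 was the 1 member of the list called between G1C7 and G2C9. Of the 13 members, 5 were lower in G2C9 than in Gcontrol and 0 higher, with a median of -1.38, close to that of G1C7. Gbp3 had 1.76, 1.78 and 2.03 CPM in G1C7 and 11.1, 13.2 and 10.95 CPM in Gcontrol (-2.66 ± 0.23, adjusted p = 2.82e-04). Gbp5 was rare, with 2, 6 and 0 reads in G1C7 and 56, 34 and 30 in Gcontrol (-3.84 ± 0.87, adjusted p = 0.0185). Its call ended on leaving out G1C7 replicate 1 or any single Gcontrol library (adjusted p 0.0554 to 0.0857), and the difference was -5.13 without G1C7 replicate 2. Gbp2, Gbp3 and Gbp5 lie on chromosome 3 beyond 75 Mb, where the median difference was -0.45.

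The antiviral interferon-stimulated genes showed the same direction. Of 32 tested, 10 were lower and 0 higher in G1C7 than in Gcontrol, with a median of -2.16, and none was called against G2C9 in either direction. The count was 23 lower and 1 higher without G1C7 replicate 2, against 13.1% lower and 12.6% higher over all tested genes. Leaving out single libraries gave between 5 without G1C7 replicate 1 or 3 or any single Gcontrol library and 23 without G1C7 replicate 2. Medians by library were -2.64, -0.96 and -2.60. Oasl1, an oligoadenylate synthetase-like protein that restrains interferon production in mice, had 0, 4 and 0 reads in G1C7, against 142, 154 and 169 in Gcontrol, 115-fold (95% counting interval 31.5 to 957) lower. Rsad2, which encodes viperin, had 0, 2 and 0 reads in G1C7, against 78, 76 and 78 in Gcontrol. Cmpk2, a mitochondrial nucleotide kinase, had 0, 0 and 2 reads in G1C7, against 52, 64 and 48 in Gcontrol. Both genes had at most 2 reads in each G2C9 library as well. Rsad2 (chr12:26442746-26456452), Cmpk2 (chr12:26469204-26479837) and the neural transcription factor gene Sox11 (chr12:27334264-27342574) lie within the same stretch of chromosome 12. Sox11 had 0, 0 and 0 reads in G1C7, against 178, 193 and 150 in Gcontrol, at least 85.9-fold lower, and 0 in G2C9.

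Of the 21 tested interferon receptors, sensors and signalling genes, 1 was higher and 1 lower, with a median of -0.02. With single libraries left out, between 1 without G1C7 replicate 1 or 3, any single G2C9 library or any single Gcontrol library and 4 without G1C7 replicate 2 were lower. Ifngr1, the ligand-binding chain of the interferon-gamma receptor, had 62.6, 69.9 and 65.2 CPM in G1C7, against 48.3, 49.3 and 49.6 CPM in Gcontrol (0.43 ± 0.08, adjusted p = 0.0101), a call that ended on leaving out Gcontrol replicate 1 (adjusted p 0.0563). Its groups did not overlap. In the MHC class I list, 1 of 18 was higher and 1 lower, and without G1C7 replicate 2 the count of lower members was 7. Over the fits with a library left out, the number higher lay between 1 without any single G1C7 library, G2C9 replicate 1 or 2 or any single Gcontrol library and 4 without G2C9 replicate 3. The nonclassical gene H2-M3, on the raised stretch of chromosome 17, had 24.5, 19.2 and 26.8 CPM in G1C7, against 11.4, 13.7 and 12.2 CPM in Gcontrol (0.92 ± 0.15, adjusted p = 0.00462). The immunoproteasome subunit gene Psmb10 was lower (-0.51 ± 0.15, adjusted p = 0.0494), a call lost on leaving out G1C7 replicate 1 or 3, G2C9 replicate 1 or 2 or any single Gcontrol library (adjusted p 0.0635 to 0.152).

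Promoters of 4 genes of these lists are shown because they carry a match to the interferon-stimulated response element, the site bound by ISGF3 and interferon regulatory factors. The motif searched was GAAA and GAAA with 2 bases of any kind between them, on both strands, and matches are in capitals. The windows lie at chr3:142620413-142620712 (plus strand) for Gbp2, chr3:142559794-142560093 (plus strand) for Gbp3, chr3:142496684-142496983 (plus strand) for Gbp5 and chr12:26456403-26456702 (minus strand) for Rsad2, in GRCm38.p6 from RefSeq.
Gbp2: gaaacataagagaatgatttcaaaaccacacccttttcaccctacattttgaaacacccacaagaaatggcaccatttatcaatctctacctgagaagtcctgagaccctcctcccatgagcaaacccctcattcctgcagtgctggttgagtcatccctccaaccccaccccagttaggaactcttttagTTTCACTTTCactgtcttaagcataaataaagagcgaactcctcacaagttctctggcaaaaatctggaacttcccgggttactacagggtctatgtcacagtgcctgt
Gbp3: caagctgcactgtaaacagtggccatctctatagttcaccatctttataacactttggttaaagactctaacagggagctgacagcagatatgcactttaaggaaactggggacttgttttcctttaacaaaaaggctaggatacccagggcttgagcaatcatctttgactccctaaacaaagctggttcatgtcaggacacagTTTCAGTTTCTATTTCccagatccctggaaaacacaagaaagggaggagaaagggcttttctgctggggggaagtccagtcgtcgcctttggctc
Gbp5: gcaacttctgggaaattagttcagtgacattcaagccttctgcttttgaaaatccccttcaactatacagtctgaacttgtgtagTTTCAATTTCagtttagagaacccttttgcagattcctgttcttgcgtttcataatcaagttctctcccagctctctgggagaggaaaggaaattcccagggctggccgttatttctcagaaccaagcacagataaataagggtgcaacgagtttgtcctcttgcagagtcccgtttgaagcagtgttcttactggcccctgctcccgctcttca
Rsad2: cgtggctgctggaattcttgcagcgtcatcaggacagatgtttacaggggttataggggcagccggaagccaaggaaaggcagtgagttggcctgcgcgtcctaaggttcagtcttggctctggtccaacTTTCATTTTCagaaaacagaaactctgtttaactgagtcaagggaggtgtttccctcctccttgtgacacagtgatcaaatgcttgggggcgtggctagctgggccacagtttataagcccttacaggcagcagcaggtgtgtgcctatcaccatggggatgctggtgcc
Gbp3 carries 2 overlapping matches. A match was present in 3.44% of the 32851 promoters, and 3.99% of the 27025 genes with a promoter had one. Promoters were found for 8 of the 13 tested guanylate-binding and immunity-related GTPase genes, and all 8 genes had a match, called or not. For the antiviral genes, 23 of 32 had a promoter in the table, and 13 of these 23 had a match, including 3 of the 9 called ones. The sterol regulatory element TCACNCCAC was present in 1.24% of all promoters and 1.44% of all genes with a promoter. Of 14 cholesterol synthesis genes with a promoter, 1 had it, Hmgcs1, which was not called. The AP-1 motif TGANTCA was present in 7.81% of all promoters and 8.97% of all genes with a promoter. It was found in none of 16 immediate early genes and none of 12 MAPK feedback genes.

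Cholesterol synthesis genes rose in part. Of 19 enzymes tested, 7 were higher and 0 lower in G1C7 than in Gcontrol, with a median log2 fold change of 0.58. Without G1C7 replicate 2, 15 were higher, against 12.6% of all tested genes, and the median was 0.72. The range with single libraries left out lay between 6 without G1C7 replicate 1 or 3 or any single Gcontrol library and 15 without G1C7 replicate 2. Library medians were 0.71, 0.13 and 0.72. Msmo1, a sterol demethylase, had 199, 162 and 199.7 CPM in G1C7, against 72.6, 82.96 and 74.03 CPM in Gcontrol (1.29 ± 0.13, adjusted p = 5.31e-04). Fdft1, squalene synthase, had 144, 151 and 146 CPM in G1C7, 76.6, 80.5 and 76.6 in Gcontrol and 107, 115 and 104 in G2C9 (0.92 ± 0.07, adjusted p = 2.00e-04; 0.44 ± 0.07, adjusted p = 0.0156 against G2C9). The 3 groups did not overlap for Fdft1, and the call against G2C9 ended on leaving out G1C7 replicate 1 or 3, G2C9 replicate 1 or 2 or Gcontrol replicate 1 or 3 (adjusted p 0.0501 to 0.079). Against G2C9, 3 of the 19 were higher in G1C7 and 0 lower. In G2C9 itself, 3 of the 19 were higher than in Gcontrol and 0 lower, with a median of 0.24.

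Among 14 genes of sterol sensing, uptake and export, 4 were higher and 1 lower. Insig1, which holds the SREBP complex in the endoplasmic reticulum, had 166, 130.1 and 164 CPM in G1C7, against 92.04, 94.8 and 88.3 CPM in Gcontrol (0.74 ± 0.10, adjusted p = 0.00209). Stard4, a cytosolic sterol carrier, had 103, 82.7 and 101 CPM in G1C7, against 52.1, 54.7 and 52.2 CPM in Gcontrol (0.85 ± 0.14, adjusted p = 0.00523). In both cases every G1C7 library lay above Gcontrol, with replicate 2 lowest. The sterol acyltransferase gene Soat1 was lower (-0.38 ± 0.10, adjusted p = 0.0268), a call lost on leaving out G1C7 replicate 1, G2C9 replicate 1 or any single Gcontrol library (adjusted p 0.0542 to 0.105). With single libraries left out, between 2 without Gcontrol replicate 1 or 2 and 5 without G1C7 replicate 2 were higher. Of 15 fatty acid synthesis genes, 5 were higher and 1 lower, and between 2 without G1C7 replicate 1 or any single Gcontrol library and 5 without G1C7 replicate 2 or G2C9 replicate 3 were higher with single libraries left out. The desaturase gene Fads1 had 184, 212 and 178 CPM in G1C7, against 109.9, 109 and 119 CPM in Gcontrol (0.77 ± 0.09, adjusted p = 0.00112). The desaturase gene Fads2 had 175, 168 and 181 CPM in G1C7, against 103, 99.4 and 107 CPM in Gcontrol (0.76 ± 0.08, adjusted p = 5.50e-04). Gpam, a mitochondrial acyltransferase of triglyceride synthesis, was lower, with 55.4, 60.3 and 56.9 CPM in G1C7 and 76.7, 73.7 and 80.3 CPM in Gcontrol (-0.42 ± 0.07, adjusted p = 0.00644). Acacb, an acetyl-CoA carboxylase, had 3.405, 0.874 and 3.09 CPM in G1C7 and 0.592, 0.739 and 0.5998 CPM in Gcontrol (1.93 ± 0.48, adjusted p = 0.0275). This call against Gcontrol ended on leaving out G1C7 replicate 1 or 3 or any single Gcontrol library (adjusted p 0.078 to 0.109). Acacb had 2.83, 2.8 and 1.66 CPM in G2C9, where it was also called higher than in Gcontrol.

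Markers of neural lineages changed in both directions. Cspg4, the NG2 proteoglycan of oligodendrocyte precursors and pericytes, had 1.53, 0.91 and 1.46 CPM in G1C7, against 44.5, 38.4 and 47.7 CPM in Gcontrol and 4.0004, 3.39 and 5.41 CPM in G2C9 (-5.06 ± 0.26, adjusted p = 3.45e-05; -1.71 ± 0.24, adjusted p = 0.00727 against G2C9). The 3 groups did not overlap, with G1C7 lowest. Nkx2-2, a transcription factor of ventral progenitors and the oligodendrocyte lineage, had 10.2, 8.12 and 9.498 CPM in G1C7, against 4.196, 3.58 and 4.36 CPM in Gcontrol (1.19 ± 0.15, adjusted p = 0.00146). Its G2C9 libraries lay near those of G1C7, at 8.83, 9.16 and 7.91 CPM. Pdgfra, the receptor of PDGF-A, was higher (0.63 ± 0.18, adjusted p = 0.0427), a call lost on leaving out G2C9 replicate 1 or 2 or any single Gcontrol library (adjusted p 0.0547 to 0.141). The transcription factor gene Sox6 was lower, at 0.11 ± 0.00164 CPM in G1C7 and 0.55 ± 0.105 CPM in Gcontrol (-2.29 ± 0.33, adjusted p = 0.0024). These 4 were all that could be tested of the 14 precursor markers. Nes, an intermediate filament of neural progenitors on the lowered stretch of chromosome 3, had 158, 149 and 149.9 CPM in G1C7, 119, 108 and 123 in Gcontrol and 101, 96.9 and 90.1 in G2C9 (0.38 ± 0.08, adjusted p = 0.0155; 0.67 ± 0.08, adjusted p = 0.0045 against G2C9), with the call against Gcontrol lost on leaving out G1C7 replicate 1 or Gcontrol replicate 1 or 2 (adjusted p 0.065 to 0.0806).

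Of the 7 tested progenitor markers, 2 were higher and 1 lower, of 8 astrocyte markers 0 and 2, and of 8 neuron markers 0 and 2. Glul, the glutamine synthetase of astrocytes, had 50.6, 48.7 and 49.3 CPM in G1C7, against 76.97, 79.2 and 79.4 CPM in Gcontrol (-0.66 ± 0.07, adjusted p = 9.23e-04). Its level was also lower in G2C9, at 52.96, 57.1 and 51.05 CPM. The call of Vim, an intermediate filament gene (0.30 ± 0.09, adjusted p = 0.0428), ended on leaving out G1C7 replicate 1 or 3, G2C9 replicate 1 or 2 or any single Gcontrol library (adjusted p 0.0723 to 0.163). Pax6, a transcription factor of neural progenitors, was lower (-1.78 ± 0.44, adjusted p = 0.0268; -2.48 without G1C7 replicate 1), a call lost on leaving out G1C7 replicate 3 or any single Gcontrol library (adjusted p 0.0707 to 0.0991). Aldh1l1, a folate enzyme of astrocytes, was lower (-1.61 ± 0.47, adjusted p = 0.0452), and its call held in the 1 fit without G2C9 replicate 3 and ended in the other 8, at adjusted p up to 0.152. Nefm, a neurofilament gene, had 2, 0 and 0 reads in G1C7, against 20, 28 and 22 in Gcontrol, and its call (adjusted p = 0.0114) ended on leaving out any single Gcontrol library (adjusted p 0.0508 to 0.0582). In the list of 5 oligodendrocyte markers, 0 were called against Gcontrol, and Aspa, the aspartoacylase of oligodendrocytes, had 17.2, 11.2 and 16.4 CPM in G1C7 and 18.96, 21.5 and 19.4 CPM in Gcontrol (-0.42 ± 0.27, adjusted p = 0.33). Of the 5 macrophage and 4 endothelial markers tested, 1 each was lower, Csf1r (-1.45 ± 0.31, adjusted p = 0.0138) and Flt1 (-1.14 ± 0.23, adjusted p = 0.0111). Csf1r lost its call on leaving out Gcontrol replicate 2 (adjusted p 0.0633), and Flt1 on leaving out Gcontrol replicate 1 (adjusted p 0.0582). Of the macrophage markers, 3 were lower without G1C7 replicate 2.

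Glutamate receptor and synaptic adhesion genes were called in 6 of 12 tested members, 5 higher and 1 lower, with a median of 0.66, and 16 of the 28 listed did not pass the filter on low counts. Grik5, a kainate receptor subunit, had 21.6, 49.1 and 19.2 CPM in G1C7, against 5.64, 4.99 and 5.86 CPM in Gcontrol (2.45 ± 0.44, adjusted p = 0.0067). All G1C7 libraries lay above Gcontrol, and replicate 2 was the highest. Grik4, another kainate subunit, had 18, 47 and 12 reads in G1C7, against 0, 2 and 4 in Gcontrol (adjusted p = 0.0332), and lost its call on leaving out G1C7 replicate 1 or 2, G2C9 replicate 2 or any single Gcontrol library (adjusted p 0.0506 to 0.128). Nrxn2, a presynaptic adhesion molecule, was lower, at 0.159 ± 0.0198 CPM in G1C7 and 0.423 ± 0.0639 CPM in Gcontrol (-1.40 ± 0.39, adjusted p = 0.0388), a call lost on leaving out G1C7 replicate 1 or 3, G2C9 replicate 2 or any single Gcontrol library (adjusted p 0.0637 to 0.143). Without G1C7 replicate 2 the list median was 0.47. Over the fits with a library left out, the number higher lay between 3 without any single Gcontrol library and 6 without G2C9 replicate 3. Gria1, described above with the genes set apart in G1C7, was the member called against G2C9.

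Receptor tyrosine kinases and their ligands had 5 higher and 1 lower of 26 tested, and 10 higher without G1C7 replicate 2. Leaving out single libraries gave between 2 without Gcontrol replicate 1 or 2 and 10 without G1C7 replicate 2. In G2C9, 6 of the 26 were higher than in Gcontrol and 1 lower, with a median of 0.39, against 0.37 in G1C7. Set against G2C9, 1 was higher and 1 lower in G1C7. Tgfa, a ligand of the EGF receptor, had 3.18, 3.51 and 2.34 CPM in G1C7, 8.98, 7.797 and 7.07 in Gcontrol and 0.772, 0.796 and 0.703 in G2C9 (-1.40 ± 0.20, adjusted p = 0.00241; 1.99 ± 0.21, adjusted p = 0.00202 against G2C9). G1C7 lay between the other groups, without overlap. Igf1, the insulin-like growth factor, had 2.19, 5.46 and 1.8996 CPM in G1C7, against 0.518, 0.554 and 0.459 CPM in Gcontrol (2.64 ± 0.41, adjusted p = 0.00363; 2.00 without G1C7 replicate 2). Its receptor gene Igf1r had 127 ± 24.8 CPM in G1C7 and 79.002 ± 9.62 CPM in Gcontrol (0.68 ± 0.15, adjusted p = 0.0166). It lost its call on leaving out Gcontrol replicate 1 or 2 (adjusted p 0.0596 to 0.0722). Kitl, the ligand of KIT, was higher (0.71 ± 0.17, adjusted p = 0.0248), a call lost on leaving out G1C7 replicate 1 or 3 or any single Gcontrol library (adjusted p 0.0551 to 0.105). Igfbp6, which binds IGF-II, had 13.3, 16.6 and 12.4 CPM in G1C7, against 54.8, 52.8 and 57.98 CPM in Gcontrol (-1.97 ± 0.22, adjusted p = 9.19e-04), the 1 called of 5 IGF-binding proteins. In G2C9, 3 of these 5 were lower than in Gcontrol, with a median of -1.05, against -0.65 in G1C7. Between G1C7 and G2C9, 0 of the 5 were called.

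Downstream of these receptors, 2 of 16 MAPK feedback regulators and ETS factors were higher and 0 lower. Without G1C7 replicate 2, 13 were higher, against 12.6% of all tested genes. Leaving out single libraries gave between 1 without Gcontrol replicate 1 or 2 and 13 without G1C7 replicate 2. Library medians were 0.61, 0.05 and 0.59. In G2C9, 3 of the 16 were higher than in Gcontrol and 0 lower, with a median of 0.34, against 0.43 in G1C7. Between G1C7 and G2C9, 0 of the 16 were called. Spry1, an inhibitor of receptor tyrosine kinase signalling, had 14.1, 21.3 and 13.02 CPM in G1C7, against 7.91, 7.41 and 8.203 CPM in Gcontrol (1.04 ± 0.19, adjusted p = 0.00709). Dusp1, a MAP kinase phosphatase on the raised stretch of chromosome 17, had 296, 364 and 288 CPM in G1C7, against 192, 191 and 196 CPM in Gcontrol (0.71 ± 0.14, adjusted p = 0.0108). It lost its call on leaving out Gcontrol replicate 1 or 2 (adjusted p 0.0501 to 0.0511). Among 21 immediate early factors, 2 were higher and 3 lower, and between 3 without G1C7 replicate 1 or 3, any single G2C9 library or any single Gcontrol library and 6 without G1C7 replicate 2 were lower with single libraries left out. Jun had 259, 193 and 238 CPM in G1C7, against 117, 108 and 119.7 CPM in Gcontrol (1.01 ± 0.13, adjusted p = 0.00147). Its AP-1 partner Fos was lower and had 40.6, 29.1 and 27.5 CPM in G1C7, against 134, 128 and 130.04 CPM in Gcontrol (-2.01 ± 0.16, adjusted p = 1.80e-04). Fosb, a Fos paralog, had 44.7, 15.4 and 26.01 CPM in G1C7, against 125, 109 and 136 CPM in Gcontrol (-2.11 ± 0.34, adjusted p = 0.0046). Klf6, a zinc finger factor, had 114, 112 and 108 CPM in G1C7, against 160.3, 172 and 164 CPM in Gcontrol (-0.57 ± 0.08, adjusted p = 0.00232). None of these 4 genes' groups overlapped. Ier2 was higher (0.53 ± 0.15, adjusted p = 0.0454), a call lost on leaving out G1C7 replicate 1, G2C9 replicate 1 or 2 or any single Gcontrol library (adjusted p 0.0613 to 0.149).

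The WNT pathway had 5 higher and 8 lower of 27 tested. With single libraries left out, between 3 without any single Gcontrol library and 5 without G1C7 replicate 2 or G2C9 replicate 2 or 3 were higher and between 5 without G1C7 replicate 3 or any single Gcontrol library and 9 without G1C7 replicate 2 were lower. Among receptors, Fzd3 was set apart in G1C7 (above), and Fzd6, another frizzled receptor, had 0.299, 0.437 and 0.658 CPM in G1C7, against 10.8, 10.3 and 10.002 CPM in Gcontrol (-4.47 ± 0.37, adjusted p = 2.38e-04). Wnt7a, a ligand of the developing brain, had 2, 0 and 0 reads in G1C7, against 24, 14 and 38 in Gcontrol, 37.6-fold (95% counting interval 6.35 to 1523) lower. Dkk2, a secreted inhibitor of the LRP co-receptors on the lowered stretch of chromosome 3, had 75.1, 73.1 and 71.3 CPM in G1C7, 29.1, 31.2 and 30.4 in Gcontrol and 50.7, 52.8 and 46.5 in G2C9 (1.28 ± 0.08, adjusted p = 7.70e-05; 0.55 ± 0.08, adjusted p = 0.0085 against G2C9). The 3 groups did not overlap, and G1C7 was highest. Apcdd1, a membrane inhibitor of WNT signalling, had 29.03, 44.9 and 30.5 CPM in G1C7, against 13.1, 11.9 and 13.2 CPM in Gcontrol (1.45 ± 0.16, adjusted p = 9.47e-04). Its G2C9 libraries had 25.8, 27 and 26 CPM and were also called higher than Gcontrol. Sfrp1, a secreted frizzled-related inhibitor, had 16, 70 and 18 reads in G1C7, against 2, 0 and 0 in Gcontrol and 0 in G2C9 (adjusted p = 0.0214 against Gcontrol). The highest Sfrp1 count was in G1C7 replicate 2, and the call ended on leaving out any single Gcontrol library (adjusted p 0.0682 to 0.0906).

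In the TGF-beta and BMP pathway, 4 of 30 tested were higher and 6 lower. Ltbp1, a matrix protein that stores latent TGF-beta, lies on the raised stretch of chromosome 17 and had 1569, 1990.3 and 1500.5 CPM in G1C7, against 829.8, 795 and 829.8 CPM in Gcontrol (1.04 ± 0.12, adjusted p = 9.65e-04). Its paralog Ltbp2 went the other way, with 87.9, 115 and 80.3 CPM in G1C7 and 229.8, 215 and 235 CPM in Gcontrol (-1.26 ± 0.16, adjusted p = 0.00173). Grem1, a secreted BMP antagonist, had 1614, 1267 and 1597 CPM in G1C7, against 916, 918 and 906 CPM in Gcontrol (0.71 ± 0.13, adjusted p = 0.00881). The BMP target genes Id3 and Smad6 were lower. Id3 had 171, 122 and 170.3 CPM in G1C7 and 328, 332 and 321 CPM in Gcontrol (-1.08 ± 0.13, adjusted p = 0.00111). Smad6 had 8.46, 8.12 and 8.04 CPM in G1C7, against 15.8, 14.6 and 15.4 CPM in Gcontrol (-0.89 ± 0.11, adjusted p = 0.00123). None of these groups overlapped. Bmp4 was higher (1.03 ± 0.30, adjusted p = 0.0482), a call lost on leaving out G2C9 replicate 1 or 2 or any single Gcontrol library (adjusted p 0.0648 to 0.145). Bmp4 had 82.9, 85.7 and 127 CPM in G2C9, where it was also called higher than in Gcontrol. In the NOTCH pathway, 1 of 13 was higher and 3 lower, and between 1 without G1C7 replicate 1 or 3 or Gcontrol replicate 1 or 3 and 4 without G1C7 replicate 2 or G2C9 replicate 3 were lower with single libraries left out. Notch4, a receptor lower in G1C7 although encoded on the raised stretch of chromosome 17, had 0.281, 0.419 and 0.146 CPM in G1C7, against 3.18, 3.75 and 3.28 CPM in Gcontrol (-3.58 ± 0.54, adjusted p = 0.00315). The ligand gene Dll1, on the same stretch, was higher (1.19 ± 0.27, adjusted p = 0.0172), a call lost on leaving out Gcontrol replicate 1 or 2 (adjusted p 0.0773 to 0.0774). The target gene Hey1 was lower (-0.86 ± 0.25, adjusted p = 0.0469), a call lost on leaving out G1C7 replicate 1 or 3, G2C9 replicate 1 or any single Gcontrol library (adjusted p 0.0697 to 0.14). Notch2, on the lowered stretch of chromosome 3, was lower (-0.56 ± 0.12, adjusted p = 0.0145), a call lost on leaving out G1C7 replicate 1 or 3 or Gcontrol replicate 1 or 3 (adjusted p 0.0502 to 0.0635).

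**Figure D3:**
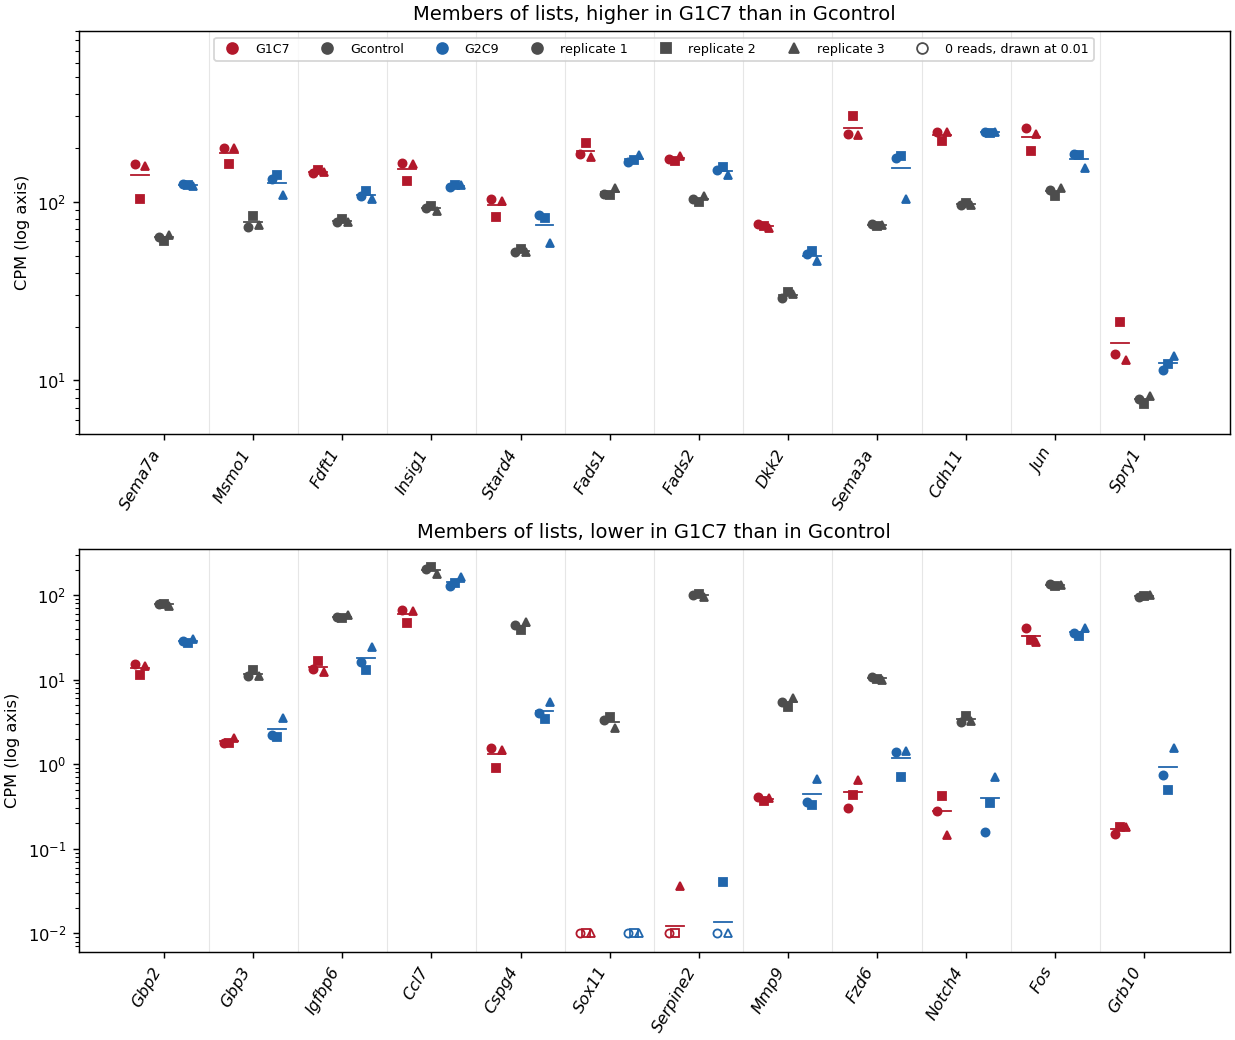
CPM on a log axis of 24 members of the gene lists in each library of G1C7 (red), Gcontrol (grey) and G2C9 (blue); markers stand for replicates, lines for group means and open markers at 0.01 for 0 reads. The genes were picked among those called against Gcontrol. G1C7 libraries lie above Gcontrol for every gene of the upper panel and below it for every gene of the lower one, which that choice largely implies. G2C9 lies near G1C7 for several of these genes, such as Cdh11, Sox11 and Serpine2.

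Of 24 matrix proteases and inhibitors, 6 were lower and 0 higher. Serpine2, an inhibitor of thrombin and plasminogen activators, had 0, 0 and 2 reads in G1C7, against 5349, 5558 and 5417 in Gcontrol, 8073-fold (95% counting interval 1449 to 318920) lower, and at most 2 reads in each G2C9 library. The gelatinase gene Mmp9 had 0.412, 0.364 and 0.402 CPM in G1C7, against 5.47, 4.804 and 6.104 CPM in Gcontrol (-3.79 ± 0.31, adjusted p = 2.13e-04). The membrane protease gene Adam8 had 1.78, 2.51 and 1.81 CPM in G1C7, against 13.7, 12.5 and 14.6 CPM in Gcontrol (-2.74 ± 0.21, adjusted p = 1.63e-04). Adam8 was low in G2C9 too, at 1.82, 1.86 and 2.5 CPM. The collagens had 3 lower and 0 higher of 20. Without G1C7 replicate 2, 10 were lower, against 13.1% of all tested genes. The range with single libraries left out lay between 1 without G1C7 replicate 1 or 3, G2C9 replicate 2 or any single Gcontrol library and 10 without G1C7 replicate 2. Library medians were -0.66, 0.41 and -0.90, so G1C7 replicate 2 lay on the other side of Gcontrol. Col5a3 (-3.26 ± 0.89, adjusted p = 0.0373; -5.06 without G1C7 replicate 2) lost its call on leaving out G1C7 replicate 1 or 3, G2C9 replicate 2 or any single Gcontrol library (adjusted p 0.0533 to 0.0989). Col4a2, of basement membranes (-0.50 ± 0.14, adjusted p = 0.0395), lost its call on leaving out G1C7 replicate 1 or 3, G2C9 replicate 1 or 2 or any single Gcontrol library (adjusted p 0.0528 to 0.13). Of 26 integrins and laminins, 1 was higher and 4 lower, and between 1 without Gcontrol replicate 1 or 3 and 8 without G1C7 replicate 2 were lower with single libraries left out. Itga4 (-3.29 ± 0.74, adjusted p = 0.0174; -4.20 without G1C7 replicate 2) lost its call on leaving out G1C7 replicate 1 or any single Gcontrol library (adjusted p 0.0531 to 0.0601). The laminin gene Lamb3 (-3.42 ± 0.81, adjusted p = 0.0216; -4.72 without G1C7 replicate 2) lost its call on leaving out G1C7 replicate 1 or any single Gcontrol library (adjusted p 0.0698 to 0.0765). Itga9 (-2.37 ± 0.55, adjusted p = 0.0205) lost its call on leaving out G1C7 replicate 3 or Gcontrol replicate 1 or 3 (adjusted p 0.0765 to 0.0989). Itgav, the higher member (0.30 ± 0.08, adjusted p = 0.0365), lost its call on leaving out G1C7 replicate 1, G2C9 replicate 1 or 2 or any single Gcontrol library (adjusted p 0.0575 to 0.148).

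Axon guidance genes had 6 higher and 7 lower of 39, and between 4 without G1C7 replicate 3 or any single Gcontrol library and 10 without G1C7 replicate 2 were lower with single libraries left out. Sema3a, a secreted repellent, had 238, 303 and 237 CPM in G1C7, against 75.01, 72.9 and 74.4 CPM in Gcontrol (1.81 ± 0.21, adjusted p = 0.00104). Sema7a, a membrane-anchored semaphorin, had 163, 104 and 159 CPM in G1C7, against 63.9, 60.7 and 64.8 CPM in Gcontrol (1.17 ± 0.16, adjusted p = 0.00192). Sema4d, a transmembrane semaphorin that binds plexin-B1, was lower, with 0.0748, 0.127 and 0.146 CPM in G1C7 and 1.39, 1.29 and 1.43 CPM in Gcontrol (-3.53 ± 0.61, adjusted p = 0.00587). No groups overlapped. Epha3 (-2.90 ± 0.79, adjusted p = 0.0362; -3.64 without G1C7 replicate 1) lost its call on leaving out G1C7 replicate 3, G2C9 replicate 1 or 2 or any single Gcontrol library (adjusted p 0.0571 to 0.124). Sema6a (-2.73 ± 0.60, adjusted p = 0.0162) lost its call on leaving out G1C7 replicate 1 or 3 or any single Gcontrol library (adjusted p 0.0588 to 0.0725). Of 15 neural and classical adhesion molecules, 3 were higher and 1 lower, and between 1 without G1C7 replicate 1 or 3, any single G2C9 library or any single Gcontrol library and 4 without G1C7 replicate 2 were lower with single libraries left out. The cadherin gene Cdh11 had 246, 218 and 246 CPM in G1C7, against 96.2, 97.9 and 95.9 CPM in Gcontrol (1.29 ± 0.08, adjusted p = 6.54e-05). The cadherin gene Cdh13 had 59.4, 60.9 and 60.2 CPM in G1C7, against 43.9, 39.4 and 44.1 CPM in Gcontrol (0.50 ± 0.08, adjusted p = 0.00401). Cadm3, a nectin-like adhesion molecule of neurons, had 0, 0 and 0 reads in G1C7, against 38, 44 and 42 in Gcontrol, at least 20.4-fold lower. In G2C9 it had 0, 0 and 2 reads and was also called lower than in Gcontrol. Dscam, a homophilic adhesion molecule, was higher (3.56 ± 0.85, adjusted p = 0.022; 2.38 without G1C7 replicate 2), a call lost on leaving out any single Gcontrol library (adjusted p 0.0885 to 0.0907).

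Chemokines and cytokines were lower in 5 and higher in 1 of 21 tested members, with a median of -0.94, and 9 were lower without G1C7 replicate 2. Against G2C9, 5 were lower and 0 higher, with a median of -1.28. Library medians over Gcontrol were -1.41, -0.41 and -1.53 in G1C7 replicates 1, 2 and 3. Summed over the list, these libraries had 2234, 5212.6 and 2213 CPM, and Gcontrol 4632, 4694 and 4479 CPM. The G2C9 sums were 3944, 4058.5 and 10460 CPM, highest in replicate 3. Ccl7, a monocyte chemoattractant, had 65.9, 46.6 and 65.4 CPM in G1C7, 200.2, 214 and 177 in Gcontrol and 126, 139.8 and 165 in G2C9 (-1.73 ± 0.16, adjusted p = 4.06e-04; -1.28 ± 0.16, adjusted p = 0.00449 against G2C9). All G1C7 values lay below all others, and both calls held with each library left out. Cxcl16, a transmembrane chemokine, had 6.87, 8.12 and 6.56 CPM in G1C7, against 20.3, 19.8 and 18.6 CPM in Gcontrol (-1.45 ± 0.29, adjusted p = 0.0108). Ccl8 was lower (-3.35 ± 0.79, adjusted p = 0.0219; -5.02 without G1C7 replicate 3), a call lost on leaving out G1C7 replicate 1 or any single Gcontrol library (adjusted p 0.0601 to 0.0758). Tslp, an alarmin of epithelia, was higher (2.44 ± 0.53, adjusted p = 0.0153; 1.63 without G1C7 replicate 2), a call lost on leaving out any single Gcontrol library (adjusted p 0.0545 to 0.0727). In the list of acute phase and NF-kB genes, 1 of 18 was higher and 2 lower. Nfkb1, which encodes p105 and p50, lies on the lowered stretch of chromosome 3 and had 207, 168 and 199 CPM in G1C7, 272, 274 and 285 in Gcontrol and 281, 285 and 279 in G2C9 (-0.53 ± 0.09, adjusted p = 0.00561; -0.56 ± 0.09, adjusted p = 0.0148 against G2C9). The call against G2C9 was lost on leaving out G1C7 replicate 3, G2C9 replicate 1 or 2 or Gcontrol replicate 1 (adjusted p 0.0522 to 0.0728). The inhibitor gene Nfkbia was lower (-0.43 ± 0.12, adjusted p = 0.0403), a call lost on leaving out G1C7 replicate 1 or 3, G2C9 replicate 1 or 2 or any single Gcontrol library (adjusted p 0.0613 to 0.121). The inhibitor gene Nfkbie, on the raised stretch of chromosome 17, was higher (0.38 ± 0.10, adjusted p = 0.0379), a call lost on leaving out G1C7 replicate 3, G2C9 replicate 1 or 2 or any single Gcontrol library (adjusted p 0.0541 to 0.156).

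Around Rragb, the list of Rag GTPases and mTORC1 control had 1 higher and 4 lower of 24 tested, and 3 higher and 5 lower without G1C7 replicate 2. Rragd, the gene of RagD, had 0.673, 0.692 and 0.548 CPM in G1C7, 3.33, 4.08 and 3.56 in Gcontrol and 1.703, 1.06 and 2.11 in G2C9 (-2.52 ± 0.29, adjusted p = 9.65e-04; -1.35 ± 0.28, adjusted p = 0.0385 against G2C9). The call against G2C9 was lost on leaving out G1C7 replicate 1 or 3, G2C9 replicate 1 or 3 or any single Gcontrol library (adjusted p 0.0697 to 0.131). Rraga, whose product RagA can take the place of RagB in the Rag dimer (also chosen after its values were seen), had 73.9, 84.9 and 77.6 CPM in G1C7 and 88.2, 93.6 and 87.6 CPM in Gcontrol (-0.19 ± 0.12, adjusted p = 0.313), a difference that was not called although the groups did not overlap. Lamtor5, a Ragulator subunit on the lowered stretch of chromosome 3, had 30.3, 31.7 and 32.8 CPM in G1C7, against 46.97, 46.2 and 44.8 CPM in Gcontrol (-0.54 ± 0.08, adjusted p = 0.00243). Tfeb, a transcription factor of lysosomal genes on the raised stretch of chromosome 17, had 15.3, 22.2 and 15.7 CPM in G1C7, against 10.1, 9.98 and 9.91 CPM in Gcontrol (0.83 ± 0.15, adjusted p = 0.00801). Among 11 tested flippase genes, 1 was higher and 2 lower. Besides Atp8a1, Atp8b2 on the lowered stretch of chromosome 3 was lower (-0.54 ± 0.12, adjusted p = 0.0142), a call lost on leaving out Gcontrol replicate 1 or 3 (adjusted p 0.064 to 0.0672). Atp11b was higher (0.34 ± 0.09, adjusted p = 0.0321), a call lost on leaving out G1C7 replicate 1 or 3, G2C9 replicate 1 or 2 or any single Gcontrol library (adjusted p 0.0505 to 0.133).

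Imprinted genes had 2 higher and 2 lower of 12 tested. Grb10, an adaptor that dampens insulin and IGF receptor signalling, had 0.15, 0.182 and 0.183 CPM in G1C7, against 94.6, 97.4 and 98.98 CPM in Gcontrol and 0.753, 0.49 and 1.56 CPM in G2C9 (-9.12 ± 0.43, adjusted p = 2.90e-05; -2.43 ± 0.43, adjusted p = 0.0193 against G2C9). The call against G2C9 was lost on leaving out G1C7 replicate 1 or 3 (adjusted p 0.072 to 0.0789). Plagl1, a zinc finger factor of growth control, had 11.6, 17.4 and 11.1 CPM in G1C7, against 2.96, 3.68 and 3.32 CPM in Gcontrol (2.01 ± 0.22, adjusted p = 7.70e-04). Cdkn1c was higher (1.55 ± 0.37, adjusted p = 0.0234), a call lost on leaving out G1C7 replicate 1 or any single Gcontrol library (adjusted p 0.0505 to 0.0946). Mest was lower (-1.27 ± 0.37, adjusted p = 0.0479), a call lost on leaving out G1C7 replicate 1 or 3, G2C9 replicate 1 or any single Gcontrol library (adjusted p 0.069 to 0.149). Of 7 tested Hox genes, Hoxa7 was higher, with 13.8, 10.2 and 13.6 CPM in G1C7, 9.08, 8.89 and 8.56 in Gcontrol and 27.98, 27.5 and 28.8 in G2C9 (0.50 ± 0.13, adjusted p = 0.0289; -1.16 ± 0.13, adjusted p = 0.00239 against G2C9), and Hoxa10 was lower, with 0, 0 and 2 reads in G1C7 and 18, 16 and 14 in Gcontrol (adjusted p = 0.0137). Hoxa7 lost the call against Gcontrol on leaving out G1C7 replicate 1 or 3, G2C9 replicate 1 or 2 or any single Gcontrol library (adjusted p 0.0555 to 0.118), and Hoxa10 on leaving out G1C7 replicate 1 or any single Gcontrol library (adjusted p 0.0507 to 0.0628).

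Among 17 immune checkpoint ligands and ectonucleotidases, 1 was higher and 2 lower, and up to 6 were lower with single libraries left out. Lgals8, which encodes galectin-8, had 30.9, 40.7 and 31.5 CPM in G1C7, against 58.8, 59.05 and 59.9 CPM in Gcontrol (-0.79 ± 0.12, adjusted p = 0.00321). Entpd5, a nucleotidase of the endoplasmic reticulum, had 13.8, 13.6 and 13.7 CPM in G1C7, 23.2, 22.4 and 22.9 in Gcontrol and 20.2, 21.3 and 18.1 in G2C9 (-0.74 ± 0.09, adjusted p = 0.00147; -0.54 ± 0.09, adjusted p = 0.0178 against G2C9). The call against G2C9 was lost on leaving out G1C7 replicate 1 or 3, G2C9 replicate 1 or 2 or Gcontrol replicate 1 (adjusted p 0.0615 to 0.0848). Entpd1, or CD39, which hydrolyses extracellular ATP, had 2.43, 16.1 and 1.95 CPM in G1C7, against 0.407, 0.406 and 0.423 CPM in Gcontrol (4.04 ± 0.91, adjusted p = 0.0172). The Entpd1 difference was 2.41 without G1C7 replicate 2, and the call ended on leaving out any single Gcontrol library (adjusted p 0.0765 to 0.0776).

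The 18 glycolysis symbols gave 19 tested entries, since Aldoa has 2 entries in the annotation. Of these 19, 0 were higher and 3 lower, and between 0 without G1C7 replicate 1 or 3 or any single Gcontrol library and 4 without G1C7 replicate 2 were lower with single libraries left out. Slc16a3, the lactate exporter MCT4, had 0.917, 0.401 and 1.096 CPM in G1C7, 3.99, 3.51 and 4.02 in Gcontrol and 8.02, 7.797 and 34.6 in G2C9 (-2.25 ± 0.63, adjusted p = 0.0408; -4.38 ± 0.67, adjusted p = 0.0112 against G2C9). Its call against Gcontrol ended on leaving out any single G1C7 library or any single Gcontrol library (adjusted p 0.0713 to 0.11) and that against G2C9 on leaving out G1C7 replicate 1 (adjusted p 0.0512). The hexokinase gene Hk2 was lower (-0.36 ± 0.09, adjusted p = 0.0284), a call lost on leaving out G1C7 replicate 1 or 3 or any single Gcontrol library (adjusted p 0.0718 to 0.103). The enolase gene Eno1 was lower (-0.27 ± 0.08, adjusted p = 0.0369), a call lost on leaving out G1C7 replicate 1 or 3, G2C9 replicate 1 or 2 or any single Gcontrol library (adjusted p 0.0684 to 0.133). Of 34 oxidative phosphorylation genes 2 were higher. Sdha (0.40 ± 0.08, adjusted p = 0.0083) lost its call on leaving out Gcontrol replicate 1 or 3 (adjusted p 0.0539 to 0.0549). Cox7a2 (0.28 ± 0.08, adjusted p = 0.0439) lost its call on leaving out G1C7 replicate 1 or 3, G2C9 replicate 1 or 2 or any single Gcontrol library (adjusted p 0.0623 to 0.185). In the unfolded protein response, 2 of 18 were higher and 1 lower. The co-chaperone gene Dnajb9 had 16.9, 21.1 and 17.7 CPM in G1C7, against 32.8, 32.4 and 27.7 CPM in Gcontrol (-0.74 ± 0.13, adjusted p = 0.00641). Ddit3, or CHOP, had 26.8, 86.003 and 24.4 CPM in G1C7 and 15.2, 15.5 and 15.5 CPM in Gcontrol (1.57 ± 0.45, adjusted p = 0.0425; 0.74 without G1C7 replicate 2). It lost its call on leaving out G2C9 replicate 1 or 2 or any single Gcontrol library (adjusted p 0.0637 to 0.135). Hsp90b1 (0.71 ± 0.21, adjusted p = 0.0485) lost its call on leaving out any single G1C7 library, G2C9 replicate 1 or 2 or any single Gcontrol library (adjusted p 0.0508 to 0.161).

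Of 30 cell cycle genes, the D-type cyclin gene Ccnd2 was the 1 called, with 158, 119 and 156 CPM in G1C7, against 72.3, 68.9 and 78.3 CPM in Gcontrol (0.98 ± 0.12, adjusted p = 0.00145), and 7 were higher without G1C7 replicate 2. In the NRF2 list, 1 of 16 was higher and 1 lower, and 3 were higher and 3 lower without G1C7 replicate 2. Cbr3, a carbonyl reductase, was higher (0.34 ± 0.10, adjusted p = 0.0479; 0.86 ± 0.10, adjusted p = 0.00332 against G2C9), and the glutamate-cysteine ligase subunit gene Gclm, on the lowered stretch of chromosome 3, lower (-0.48 ± 0.10, adjusted p = 0.0114). The call of Cbr3 against Gcontrol was lost on leaving out G1C7 replicate 1 or 3, G2C9 replicate 1 or 2 or any single Gcontrol library (adjusted p 0.0777 to 0.181), and that of Gclm on leaving out Gcontrol replicate 1 or 2 (adjusted p 0.0585 to 0.0607). In edgeR, 0 of 15 hypoxia response, 0 of 16 p53 target, 0 of 16 polycomb and H3K27 demethylase, and 0 of 11 mesenchymal genes were called. At an unadjusted p under 0.05, 4951 of all 15659 genes passed, and in these 4 lists 1, 3, 4 and 1 did. DESeq2 called 0, 2, 3 and 1 of these genes, and limma-voom 0 in each list. Over all genes, DESeq2 called 3862 and limma-voom 2901. In the fit without G1C7 replicate 2, edgeR called 0 higher and 1 lower of the hypoxia genes, 1 higher and 3 lower of the p53 targets, 1 higher and 3 lower of the polycomb genes, and 2 higher and 3 lower of the mesenchymal genes. Without G2C9 replicate 3 as well, 8 mesenchymal genes were lower and 2 higher. In that fit 4405 genes were lower and 4176 higher over all genes. Of the 5 oligodendrocyte markers and the 1 T and NK cell marker, 0 passed an unadjusted p under 0.05 in edgeR.

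**Figure D4:**
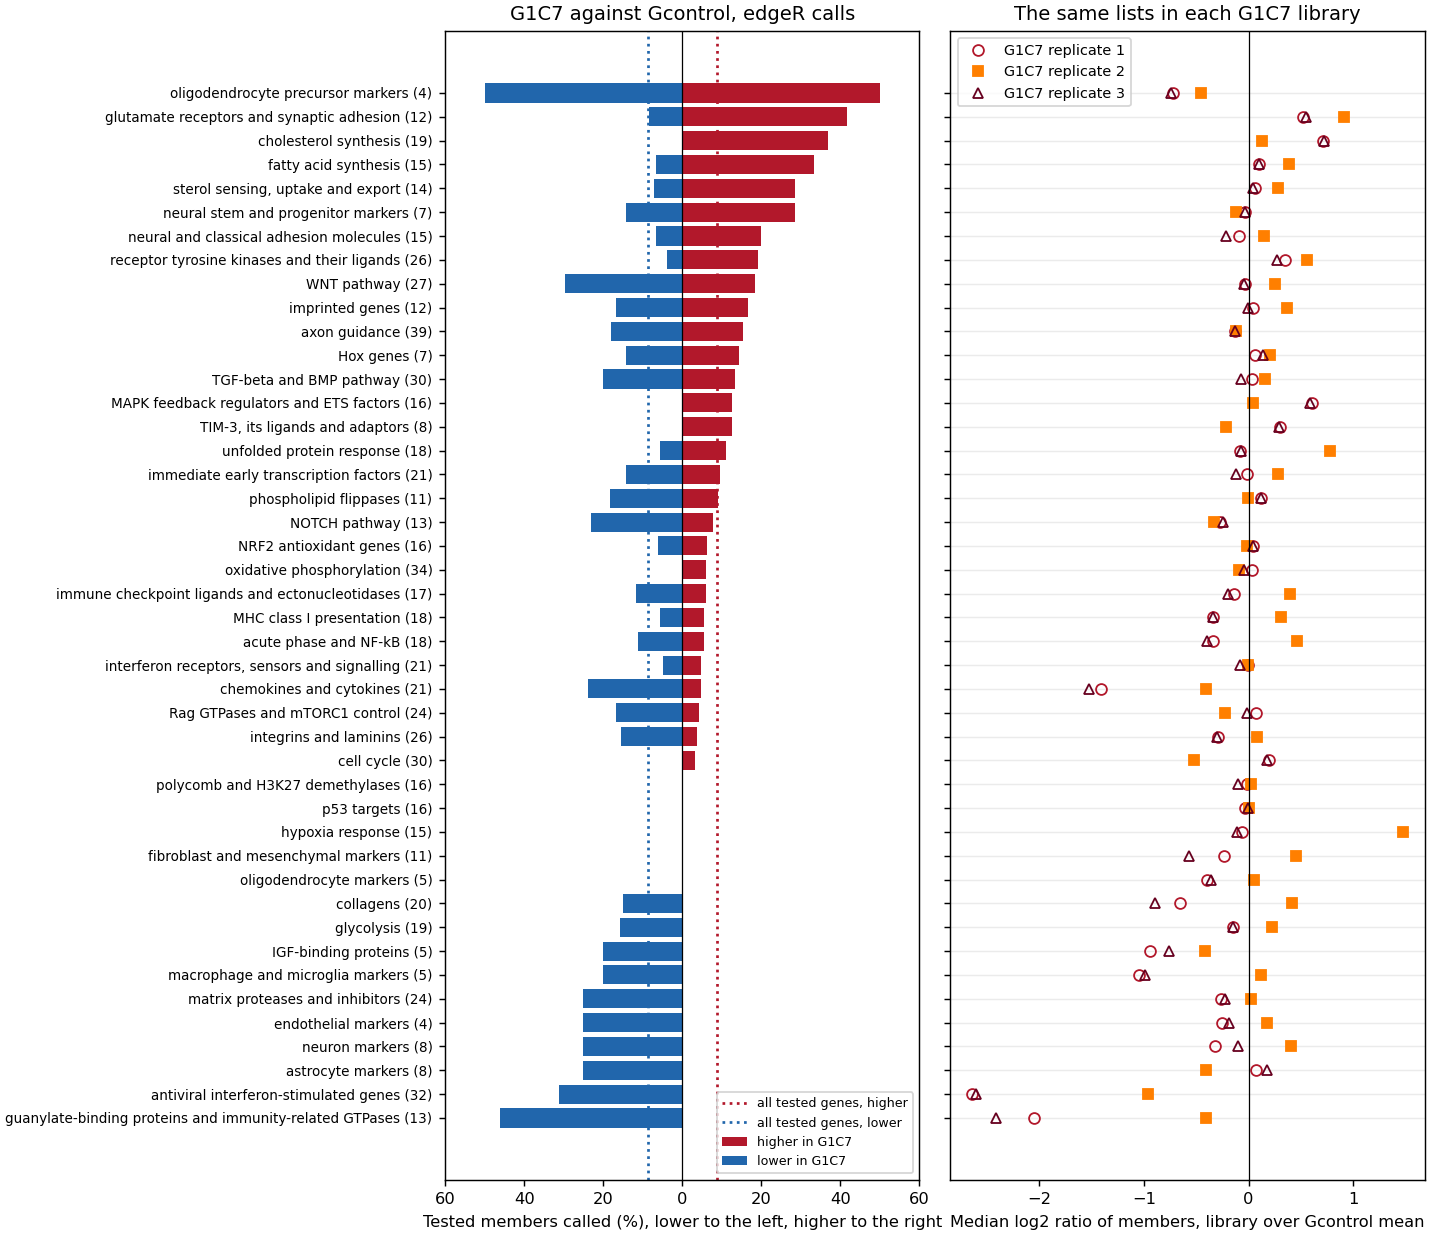
Left, share of the tested members of each list with at least 4 of them called lower (blue, to the left) or higher (red, to the right) in G1C7 than in Gcontrol, with the number tested in brackets and dotted lines at the shares over all genes, 8.77% higher and 8.73% lower. Right, the median log2 ratio of the members in each G1C7 library over the Gcontrol mean; replicate 2 (filled squares) departs from replicates 1 and 3 in several lists, such as the hypoxia response list, at 1.48 against -0.06 and -0.11.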

How the data were processed

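Whole-number read counts per gene were deposited for each library. Per the file headers, featureCounts 1.6.0 made them on GENCODE vM25 genes of GRCm38 without options for pairs, strand, multi-mapping or overlapping features, so each mate counted on its own, both strands were pooled and reads mapping to more than 1 position or gene were not counted. The submitters' processing notes also name STAR 2.6.1c, FastQC 0.11.8, edgeR and limma, and the labels' protocols name a stranded poly(A) kit. Since mates count separately, 74.1% to 75.6% of counts between 2 and 50 were even, and intervals and floors (3 read pairs, 6 reads, over a group) cover counting error only. Gene symbols come from GENCODE vM21 and promoters from RefSeq (GRCm38.p6).

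Counts were fitted with edgeR 4.0.16 in R 4.3.3 (TMM, filterByExpr, robust quasi-likelihood test) over all 9 libraries, with group as the factor and 6 residual degrees of freedom. P-values were adjusted by Benjamini-Hochberg over all genes of a contrast, and a gene was called under 0.05. The steps were tested on simulated data with independent counts and no library apart from its group. That test does not cover the deviation of G1C7 replicate 2 and G2C9 replicate 3. Per-library medians of lists are log2 ratios of CPM with a pseudocount of 0.05. RLE scaling, DESeq2 1.42.0, limma-voom 3.58.1, no count filter, a fit of only the groups compared, a replicate block and leaving out libraries were tried as alternatives.

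The genes set apart in G1C7 are the 15 higher and 15 lower protein-coding genes ranked by the smaller of their 2 changes (against Gcontrol and against G2C9), among those with a mean of 1 CPM or more in G1C7 or in both other groups, called the same way against each other group, with all G1C7 libraries beyond the other 6. From each of 45 lists, up to 3 called members per direction are named, or the most abundant where none is called; some called members are not reported here. Rraga, Lgals9 and Ddx3y were chosen after their values were seen. The comparison, the lists and the rules were chosen with earlier results of these data known.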

Additional observations from a re-analysis of the deposited data

Results flagged for a closer look

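The effect in G1C7 differed from the effect in G2C9 in 51 named genes, by the test of the difference itself (the contrast of G1C7 minus G2C9 in the edgeR fit over all 9 libraries). Values are log2 differences. Those of genes with 0 reads in G1C7 are fitted values that depend on the prior count. Groups of 3 libraries were not tested for single libraries far from the others. The genes were chosen partly on this contrast, so the values are a description. In a fit of only the G1C7 and G2C9 libraries, 35 of the 51 calls were lost, and with the replicate number as a block 24 were lost.

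Among the genes at 0 reads in G1C7, the differences were -11.82 for Rragb (adjusted p = 4.13e-05), -10.43 for Atp8a1 (adjusted p = 2.35e-04), -10.06 for Ildr2 (adjusted p = 0.00218), -9.81 for Soga3 (adjusted p = 4.68e-04) and -9.15 for Slc4a3 (adjusted p = 0.0108). Among the other genes lower in G1C7 than in both other groups, they were -6.59 for Ranbp17 (adjusted p = 0.00244), -6.27 for Rnf113a2 (adjusted p = 2.74e-05), -5.98 for Amph (adjusted p = 6.05e-04), -6.43 for Slfn3 (adjusted p = 6.05e-04) and -5.39 for C1ql1 (adjusted p = 0.00468). The remaining ones were -4.93 for Fzd3 (adjusted p = 3.07e-04), -4.57 for Ctsc (adjusted p = 0.0223), -4.38 for Col11a1 (adjusted p = 0.0168), -4.37 for Ddx43 (adjusted p = 0.0193) and -3.72 for Dclk2 (adjusted p = 5.33e-04). Among the genes higher in G1C7 than in both other groups, they were 3.23 for Gria1 (adjusted p = 0.00727), 1.83 for Ltc4s (adjusted p = 0.0246), 1.70 for Cgn (adjusted p = 0.0406), 1.80 for Sema3b (adjusted p = 0.00931) and 1.61 for Pla2g7 (adjusted p = 0.00155). Others were 1.40 for Cpeb1 (adjusted p = 0.0244), 1.31 for Msln (adjusted p = 0.0198), 1.16 for Il17rd (adjusted p = 0.0248), 1.35 for Slc27a3 (adjusted p = 0.00865) and 2.08 for Ifi209 (adjusted p = 0.00906). The remaining ones were 1.10 for Zfp870 (adjusted p = 0.00727), 1.04 for Ucn2 (adjusted p = 0.0278), 1.04 for Arhgef28 (adjusted p = 0.00217), 0.98 for Adcy1 (adjusted p = 0.0403) and 3.45 for Fndc4 (adjusted p = 3.15e-04).

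Among list members, positive differences were 0.44 for Fdft1 (adjusted p = 0.0156), 0.55 for Dkk2 (adjusted p = 0.0085), 0.67 for Nes (adjusted p = 0.0045), 1.99 for Tgfa (adjusted p = 0.00202) and 0.61 for Ltbp1 (adjusted p = 0.0272). Others were 0.69 for Nfkbie (adjusted p = 0.0103), 0.74 for Tfeb (adjusted p = 0.0385), 0.86 for Cbr3 (adjusted p = 0.00332) and 0.78 for Col4a2 (adjusted p = 0.0199). Negative ones were -1.06 for Gbp2 (adjusted p = 0.00211), -1.71 for Cspg4 (adjusted p = 0.00727), -0.77 for Ltbp2 (adjusted p = 0.0406), -0.64 for Notch2 (adjusted p = 0.0246), -1.28 for Ccl7 (adjusted p = 0.00449) and -0.56 for Nfkb1 (adjusted p = 0.0148). Others were -4.38 for Slc16a3 (adjusted p = 0.0112), -0.43 for Hk2 (adjusted p = 0.0393), -1.35 for Rragd (adjusted p = 0.0385), -1.16 for Hoxa7 (adjusted p = 0.00239), -2.43 for Grb10 (adjusted p = 0.0193) and -0.54 for Entpd5 (adjusted p = 0.0178). The calls against G2C9 of 7 of these list members also ended when some single library was left out. Col4a2 lost it on leaving out G1C7 replicate 1, G2C9 replicate 1 or 2 or Gcontrol replicate 1 (adjusted p 0.0519 to 0.0902). Hk2 lost it on leaving out G1C7 replicate 1 or 3, any single G2C9 library or any single Gcontrol library (adjusted p 0.0659 to 0.12). Ltbp1 lost it on leaving out G1C7 replicate 1, G2C9 replicate 1 or 2 or any single Gcontrol library (adjusted p 0.0633 to 0.119). Ltbp2 lost it on leaving out G1C7 replicate 1 or 3, any single G2C9 library or any single Gcontrol library (adjusted p 0.0648 to 0.13). Nfkbie lost it on leaving out G2C9 replicate 1 or 2 (adjusted p 0.0517 to 0.0599). Notch2 lost it on leaving out G1C7 replicate 1 or 3, G2C9 replicate 1 or Gcontrol replicate 1 or 3 (adjusted p 0.0512 to 0.0964). Tfeb lost it on leaving out G1C7 replicate 1 or 3, any single G2C9 library or any single Gcontrol library (adjusted p 0.0523 to 0.151).

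Without G2C9 replicate 3 the difference was -3.30 for Slc16a3 and -8.26 for Slc4a3. Tgfa, Hoxa7 and Col4a2 had opposite signs against the other groups. Tgfa was lower in G1C7 than in Gcontrol and higher than in G2C9. Hoxa7 was higher in G1C7 than in Gcontrol and lower than in G2C9. Col4a2 was lower in G1C7 than in Gcontrol and higher than in G2C9.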

How the results depend on the processing

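Against Gcontrol, 2740 genes were called, and RLE scaling, DESeq2, limma-voom, no count filter and a fit of only these 2 groups gave between 2086 and 3862. Leaving out single libraries gave between 1181 (without Gcontrol replicate 1) and 4133 (without G1C7 replicate 2). Without both libraries that stood apart, G1C7 replicate 2 and G2C9 replicate 3, the count was 8581. Against G2C9, 526 genes were called, 1267 with DESeq2, 80 in a fit of only these 2 groups, and 4320 without both libraries that stood apart. Leaving out single libraries gave between 186 (without G2C9 replicate 2) and 1286 (without G1C7 replicate 2). The cause was not tested. Of the 146 genes tested by name, 143 were called against Gcontrol, and 84 of these were called in every fit with 1 library left out and under every setting. Against G2C9, 51 of 55 were called, 26 of them in every fit with a library left out and 16 under every setting. Reversals occurred in values that were not called. Fyn against G2C9 lay between -0.016 (without G1C7 replicate 2) and 0.38 (without G2C9 replicate 3) with single libraries left out. For Havcr2 against G2C9 the lowest such value was -0.18, in the fit lacking G1C7 replicate 3. Its highest was 0.80, in that lacking G1C7 replicate 2, and limma-voom gave -0.29. Havcr2 against Gcontrol ranged between -1.03 and -0.06 with single libraries left out and was called in none of these fits.

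With the replicate number as a block, 1532 genes were called against Gcontrol, 1529 of them among the 2740, and 164 against G2C9; Havcr2 against Gcontrol was -0.80 (adjusted p = 0.501). The correlation of deviations between same-numbered libraries of G1C7 and G2C9 was 0.41 for replicates 1, -0.51 for replicates 2 and -0.56 for replicates 3. For G1C7 and Gcontrol it was -0.01, -0.01 and -0.02. The libraries that stood apart, G1C7 replicate 2 and G2C9 replicate 3, bear different numbers and weigh heavily on these deviations. The correlations therefore cannot show whether same-numbered libraries were prepared together.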
